A study of Mus musculus with 10 samples.

Results

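Klf4, Klf5, Prdm1 and Elf3 are 4 transcription factors of the intestinal epithelium, taken here as a set of genes tied to the passage from crypt to villus. They were chosen by name, each gene was read through the probe set that carries its symbol alone and has the highest mean over 10 arrays, and all 4 were found among the 12393 genes measured. Klf4 and Klf5 had 2 such probe sets each, and Prdm1 and Elf3 had 1 each.

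Mouse small intestinal epithelium was profiled on 10 Affymetrix 430A 2.0 arrays, 2 per group, all from C57BL/6 mice. The groups were stem cells sorted for the green fluorescent protein of Lgr5-eGFP-Cre mice (ISC), crypts in which secretory progenitors were enriched by deletion of Rbpj (Rbpj Sec-Pro) or by the Notch inhibitor dibenzazepine (DBZ Sec-Pro), and crypts (enterocyte progenitors, Ent-Pro) and villi (enterocytes, ENT) of Atoh1-/- mice. Only ISC is described as sorted. The crypt and villus groups are cell preparations rather than single cell types, and the ISC arrays also carried markers of secretory cells. The extraction notes give 5 mM EDTA for 50 min for crypts and for 25 min for villi. ENT and Ent-Pro share the Atoh1-/- genotype, which lacks secretory cells, whereas ISC and both Sec-Pro groups do not carry it. The driver of the Rbpj deletion, the dose and duration of dibenzazepine, and the age of the mice are not given in the sources used here. The sources do not state whether a group's arrays hold different mice. The p-values of the linear model (limma) therefore cover only array-to-array spread, possibly technical.

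Cells of the intestinal crypt divide, leave the crypt and mature as they move along the villus, and the transcription factors they carry change on the way. KLF4 and KLF5 are Krüppel-like zinc finger proteins that bind similar GC-rich and CACCC DNA: KLF5 is known as a factor of dividing crypt cells, and KLF4 as a factor of differentiated cells that slows the cell cycle and is needed for normal goblet cells. PRDM1, also called BLIMP1, is a repressor best known for driving plasma cell formation, and in mouse gut it is known for keeping the suckling type of enterocyte in place before weaning. ELF3 is an epithelial ETS-domain factor whose loss in mice disturbs the maturation of villus cells.

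On GRCm38.p6 the genes lie on chromosome 4 (Klf4, 55527137 to 55532475), chromosome 14 (Klf5, 99298691 to 99313412), chromosome 10 (Prdm1, 44437174 to 44528558) and chromosome 1 (Elf3, 135253574 to 135258472). The 250 bases before the annotated start are shown for the 3 members with a RefSeq promoter entry, because Klf4 and Prdm1 both read highest in ENT and the members bind DNA themselves; Klf5 is named only. Sequences run 5′ to 3′ on the minus strand, which is the gene's strand in all 3, and capitals mark GGGCGG and CACCC, the GC box and CACCC box of Krüppel-like and SP factors, on either strand. The Klf4 window is chr4:55532476-55532725, the Prdm1 window chr10:44458749-44458998, which lies at a start inside the gene's span, and the Elf3 window chr1:135258473-135258722.
Klf4: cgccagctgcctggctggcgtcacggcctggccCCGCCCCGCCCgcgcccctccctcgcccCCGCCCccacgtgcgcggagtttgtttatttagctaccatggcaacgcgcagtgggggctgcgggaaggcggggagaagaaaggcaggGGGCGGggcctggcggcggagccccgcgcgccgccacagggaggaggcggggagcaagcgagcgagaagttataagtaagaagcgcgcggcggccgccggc
Prdm1: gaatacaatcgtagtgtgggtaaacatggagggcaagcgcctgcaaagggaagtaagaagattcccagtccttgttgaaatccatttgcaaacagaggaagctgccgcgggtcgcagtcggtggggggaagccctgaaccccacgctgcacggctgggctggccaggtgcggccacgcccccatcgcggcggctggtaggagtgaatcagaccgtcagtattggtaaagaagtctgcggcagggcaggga
Elf3: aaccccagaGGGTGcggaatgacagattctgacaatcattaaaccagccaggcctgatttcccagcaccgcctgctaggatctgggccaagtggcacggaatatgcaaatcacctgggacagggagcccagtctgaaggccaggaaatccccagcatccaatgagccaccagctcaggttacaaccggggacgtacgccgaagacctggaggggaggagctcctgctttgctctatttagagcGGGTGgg
The Klf4 window held 4 matches to GGGCGG, of which the pair farthest from the start share 1 base, and 0 to CACCC. The Elf3 window held 0 matches to GGGCGG and 2 to CACCC. The Prdm1 window held neither. Of 32851 promoter windows of the same length, 32.7% held GGGCGG and 52.0% held CACCC. Matches to AGGAAG, a form of the ETS core, numbered 1 in the Prdm1 window and 0 in the others, against 29.5% of all windows with a match, and GAAAGT, from the PRDM1 motif, had 0 matches in the 3 windows, against 12.3% of all windows. Their GC content was 74% for Klf4, 59.2% for Prdm1 and 57.2% for Elf3, beside a median of 52.4% over all windows. These are letter matches in a short window and say nothing of binding.

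Values are the authors' log2 expression, and differences are on the same log2 scale unless given as a fold. Arrays of 1 group correlated across genes with r from 0.982 to 0.995, and array medians lay between 6.83 and 6.98. The absent control TrpnX read 3.62 to 3.82. As a check of the groups, 13 villus enterocyte markers averaged 13.79 and 13.88 in ENT, 12.90 ± 0.15 (SD, n = 2) in Ent-Pro, 12.30 to 13.63 over the 4 Sec-Pro arrays and 10.37 to 10.43 in ISC. Secretory markers were present in ISC too. The 5 Paneth markers averaged 10.97 and 11.53 there, against 8.81 and 8.85 in Ent-Pro. The 10 enteroendocrine markers averaged 8.09 and 8.40 in ISC, against 6.05 and 6.13 in Ent-Pro. The part of secretory cells in the ISC levels of the 4 genes was not tested. The Rbpj transcript read 6.74 and 6.62 where it was deleted, against 8.26 and 8.31 after dibenzazepine, and Atoh1 read 4.97 to 5.78 in the Atoh1-/- groups. Replicate 1 of Rbpj Sec-Pro stood apart: its 13 leukocyte markers averaged 9.35, above the 5.67 to 8.51 of the other arrays, and its 9 stem cell markers averaged 7.58, against 8.63 in replicate 2. Results for Prdm1 and the likeness of profiles, which rest on this array, are given with and without it.

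In villus enterocytes 3 of the 4 genes were higher than in crypt enterocyte progenitors of the same Atoh1-/- genotype. Klf4 rose 4.90-fold, Prdm1 4.33-fold and Elf3 1.48-fold, while Klf5 differed by 0.019 on the log2 scale. All genes tested gave 38.7% of calls in this comparison, 18.5% higher and 20.2% lower, so a call on its own is common here. The median difference over all genes was 0.020. Markers of other cells moved in the same comparison. All 7 tuft cell markers rose, their mean going from 6.03 and 5.63 in Ent-Pro to 8.67 and 8.28 in ENT, and 8 of 13 leukocyte markers rose. Of 13 immediate-early genes 9 rose and 2 fell, the mean going from 7.45 and 7.61 to 8.76 and 8.59. Their part in the changes of the 4 genes was not tested. Villus and crypt preparations also differed in time in EDTA, 25 and 50 min, which cannot be told apart from position.

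**Figure D1:**
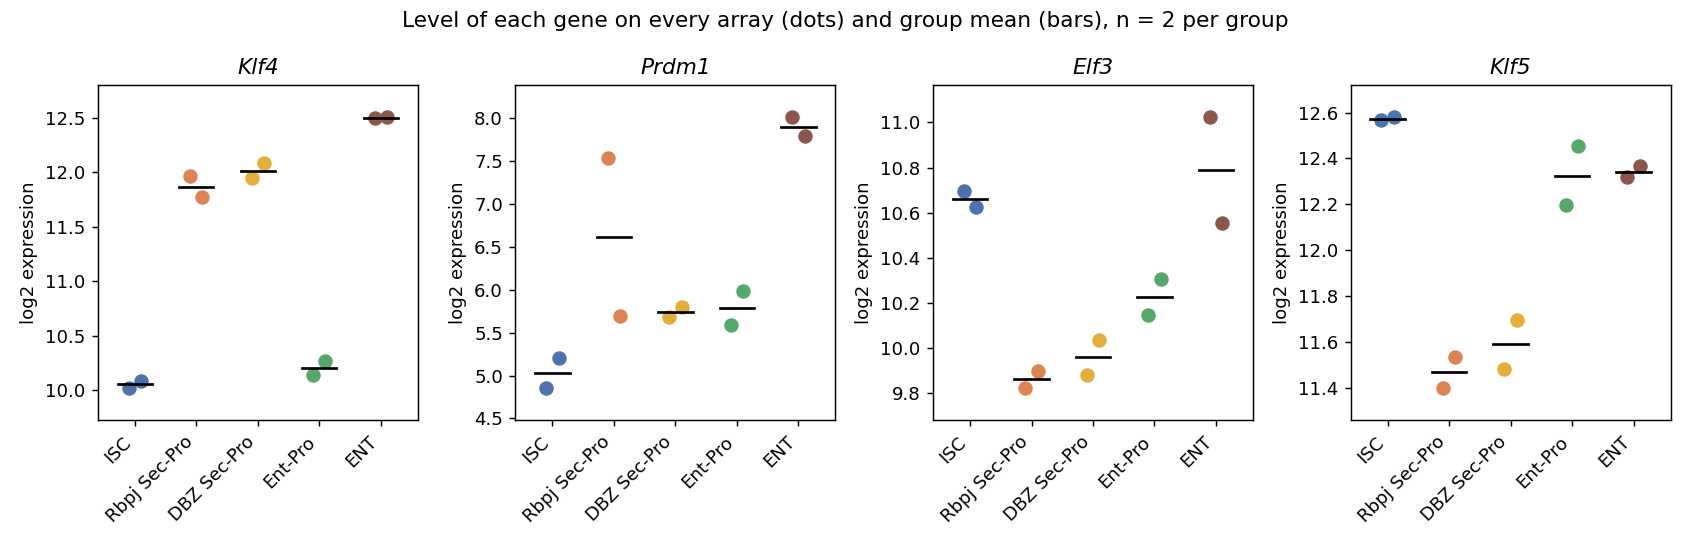
Log2 expression of Klf4, Prdm1, Elf3 and Klf5 (vertical axes, scaled per gene) on the 2 arrays of each group (dots), with the group mean as a bar. Klf4 is high in both Sec-Pro groups as well as in ENT, Prdm1 is high in ENT and on 1 Rbpj Sec-Pro array, and Klf5 and Elf3 are lowest in Sec-Pro.

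Klf4 read 12.49 and 12.50 in ENT. The Ent-Pro arrays read 10.14 and 10.27 and the ISC arrays 10.02 and 10.09. The readings were 11.96 and 11.77 for Rbpj Sec-Pro, with 11.95 and 12.08 for DBZ Sec-Pro. The arrays therefore fell into a low pair of groups, ISC and Ent-Pro, and a high set of both Sec-Pro groups and ENT, with ENT above every crypt array. ENT exceeded Ent-Pro by 2.29 (SE 0.12, limma, adjusted p = 2.4e-05) and ISC by 2.45 (SE 0.12, adjusted p = 2.9e-06). Sec-Pro, used below for the average of the Rbpj and DBZ groups, lay 0.56 under ENT (SE 0.11, adjusted p = 0.0027). Between ENT and ISC 49.2% of all genes were called, 22.3% higher and 26.8% lower in ENT. Between ENT and Sec-Pro it was 45.6%, 25.6% higher in ENT. The range of the Klf4 group means, 2.45, was larger than that of 92.7% of genes.

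Klf4 was higher in secretory progenitors too. Sec-Pro exceeded Ent-Pro, the absorptive progenitors of Atoh1-/- crypts, by 1.73 (SE 0.11, 3.33-fold, limma, adjusted p = 1.9e-05), and ISC by 1.89 (3.70-fold, adjusted p = 8.3e-06). The series holds no unsorted crypts with Notch signalling and Atoh1 both intact. Against Ent-Pro, Notch block, Atoh1 genotype and the mix of cells therefore cannot be told apart. Each Sec-Pro group stood above Ent-Pro, DBZ by 1.81 (limma, adjusted p = 3.3e-05) and Rbpj by 1.66 (adjusted p = 0.00013), 2 comparisons that share the Ent-Pro arrays. In them 18.6% and 26.3% of all genes were called, with 8.84% and 9.37% higher and 9.77% and 16.9% lower. Between them the difference was 0.15 (95% interval -0.13 to 0.43, adjusted p = 0.42). Of all genes, 24.0% (2975) were called between Sec-Pro and Ent-Pro and 9.27% were higher in Sec-Pro, but without Ent-Pro replicate 1 or 2 only 911 or 903 genes were called. Markers of secretory and other cells also stood higher there: all 8 goblet and all 10 enteroendocrine markers measured rose, as did 4 of 5 Paneth, 5 of 7 tuft and 6 of 13 leukocyte markers. The goblet mean was 13.26 to 13.84 on the Sec-Pro arrays, 11.01 and 11.17 in ISC, 6.74 and 6.92 in Ent-Pro and 6.77 and 7.37 in ENT. In ENT, Klf4 was at its highest with the goblet list near its lowest; the part of these cells in the Sec-Pro level was not tested. In preparations of many cells, fewer cells of a type and less RNA per cell cannot be told apart.

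**Figure D2:**
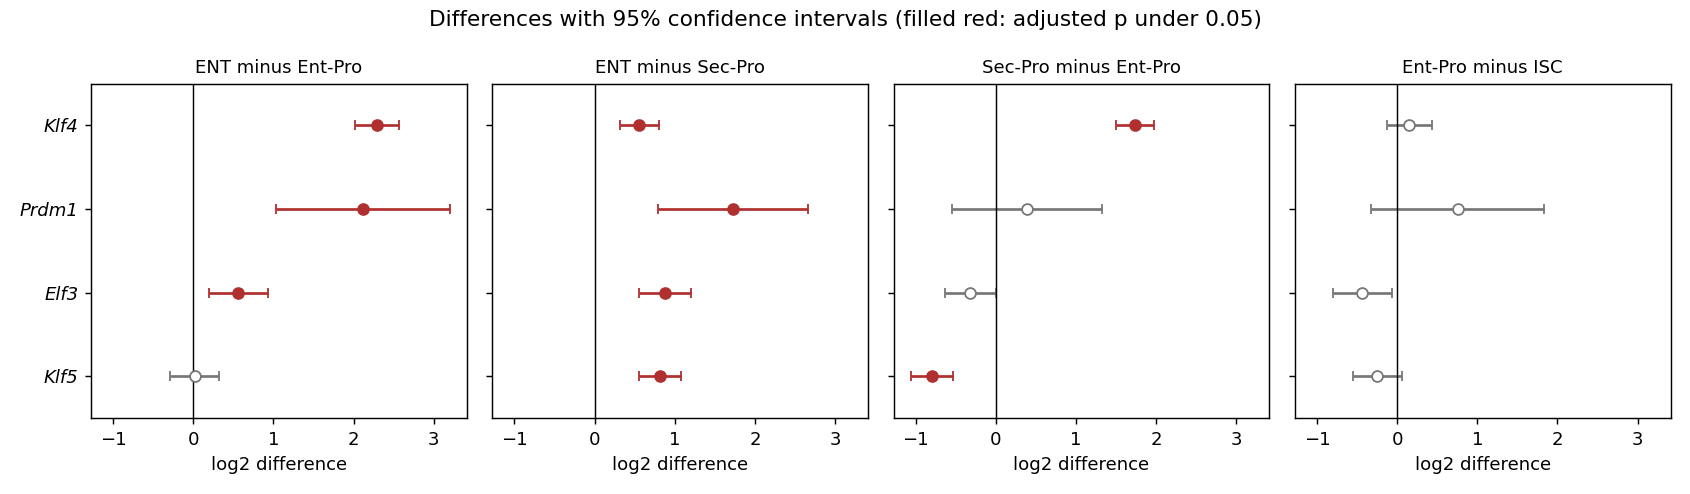
Log2 differences of the 4 genes (points) with 95% confidence intervals (bars) in 4 comparisons, with adjusted p under 0.05 in filled red. Klf4 rises in ENT by 2.29 over Ent-Pro and by 0.56 over Sec-Pro, and Klf5 falls in Sec-Pro with no call between ENT and Ent-Pro.

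Both Klf4 probe sets placed ENT at the top and gave the same direction for the steps above. On the dimmer probe set Klf4 read 12.27 and 12.26 in ENT, 9.59 and 9.45 in Ent-Pro, and among the secretory progenitors 11.76 and 11.46 (Rbpj) and 11.59 and 11.65 (DBZ). Its difference between ENT and Ent-Pro was 2.75 (SE 0.16, limma, adjusted p = 2.8e-05). Against ISC the dimmer probe set gave smaller differences, 1.31 for ENT (2.48-fold, adjusted p = 0.00015) and 0.66 for Sec-Pro (1.58-fold, adjusted p = 0.0044). The probe sets parted in stem cells, where the dimmer one read 10.76 and 11.15, above both Ent-Pro arrays. Ent-Pro minus ISC was therefore 0.15 (SE 0.12, adjusted p = 0.44) on the brighter probe set and -1.44 (SE 0.16, adjusted p = 0.00053) on the dimmer one. Whether Klf4 changed from stem cell to absorptive progenitor is not settled by these arrays. Klf4 is also known as a gene that responds fast to stress and growth signals, and the 13 immediate-early genes averaged 10.88 and 10.95 in ISC, 7.88 to 8.42 on the Sec-Pro arrays, 7.45 and 7.61 in Ent-Pro and 8.76 and 8.59 in ENT. Their part in the Klf4 levels was not tested.

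**Figure D3:**
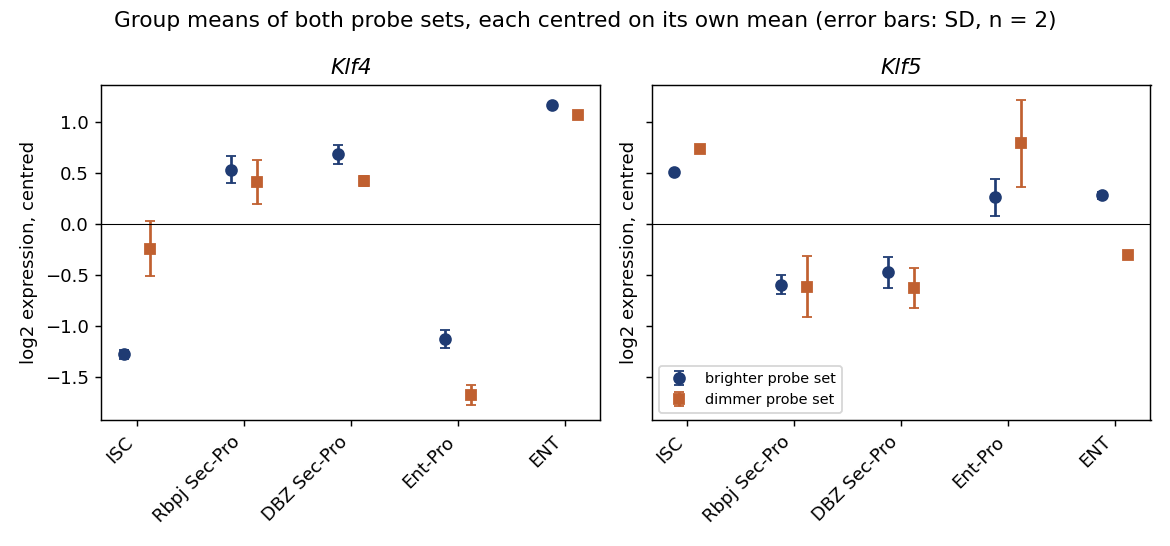
Group means of both probe sets of Klf4 (left) and Klf5 (right), each on the log2 scale with its own mean over the groups subtracted, with the SD of 2 arrays as bars. The Klf4 probe sets differ in ISC, and the Klf5 probe sets differ in ENT.

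Klf5, the crypt factor of the set, did not fall in the villus on its brighter probe set. It read 12.32 and 12.37 in ENT, 12.20 and 12.45 in the absorptive progenitors and 12.57 and 12.58 in ISC. The ENT arrays lay between those of Ent-Pro, and the difference was 0.019 (SE 0.13, 95% interval -0.29 to 0.33, limma, adjusted p = 0.94). Against ISC it was -0.23 (adjusted p = 0.20). The low groups were the secretory ones, with 11.40 and 11.53 after Rbpj deletion and 11.48 and 11.70 after dibenzazepine, below every other array. Sec-Pro was lower than Ent-Pro by a difference of -0.80 (SE 0.12, 1.74-fold lower, adjusted p = 0.0024), and lower than ISC by -1.04 (2.06-fold lower, adjusted p = 0.00016). Of all genes, 14.7% fell between Ent-Pro and Sec-Pro. The Klf5 level in ENT exceeded Sec-Pro by 0.81 (adjusted p = 0.00069), and by 0.32 on the dimmer probe set (adjusted p = 0.19).

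The dimmer Klf5 probe set gave another result for the villus. It read 9.32 and 9.31 in ENT, 10.11 and 10.71 in Ent-Pro and 10.38 and 10.34 in ISC, with no overlap between ENT and either. On it Klf5 fell from Ent-Pro to ENT by 1.09 (SE 0.21, limma, adjusted p = 0.0035), and ENT minus ISC was -1.04 (adjusted p = 0.0031). The Sec-Pro readings, 8.79 to 9.21, were again the lowest, and Sec-Pro minus Ent-Pro was -1.41 (adjusted p = 0.0014). Lower Klf5 in Sec-Pro was therefore found with both probe sets, and lower Klf5 in ENT with 1 of them. Against the mean of the 4 crypt groups, ENT was higher by 0.35 on the brighter probe set (adjusted p = 0.022) and differed by -0.37 on the dimmer one (adjusted p = 0.10), so the direction turned with the probe set. The call on the brighter one was lost without ENT replicate 1 (0.38, adjusted p = 0.088) or replicate 2 (0.33, adjusted p = 0.13). In the same comparison Klf4 was higher by 1.46 (adjusted p = 1.1e-05), Prdm1 by 2.11 (adjusted p = 0.0015) and Elf3 by 0.61 (adjusted p = 0.0039, and 0.38 with adjusted p = 0.061 without ENT replicate 1), where 48.3% of all genes were called, 24.7% higher and 23.6% lower.

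Klf4 and Klf5 were also set against each other within each array, reading only how their difference changes. Klf4 minus Klf5 was -2.55 and -2.49 in ISC and -2.05 and -2.18 in Ent-Pro. It was 0.18 and 0.13 in ENT, and higher among the secretory progenitors, at 0.56 and 0.23 (Rbpj) and 0.46 and 0.39 (DBZ). All Sec-Pro arrays stood above ENT, and ISC and Ent-Pro lay apart at the low end. Over 2 ENT against 8 crypt arrays the mean difference was 1.11 (exact permutation test over 45 splits, two-sided, p = 0.67, where the smallest possible p is 0.044). The crypt arrays come from 4 unlike groups, so the permutation p-values here also hold the spread between those groups. They do not measure the spread of replicates alone. With the dimmer Klf5 probe set, an alternative chosen after the values had been seen, it was 1.84 (exact permutation p = 0.044). ENT then read 3.17 and 3.19 and the highest crypt array 3.17, so the order of the lower ENT array and that array rests on a difference smaller than the rounding. Prdm1 minus Klf5 averaged -4.44 in ENT and -6.19 over the crypt arrays, a difference of 1.75 (exact permutation p = 0.13), and of 2.09 without Rbpj Sec-Pro replicate 1 (exact permutation p = 0.056, the smallest possible there).

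Prdm1 was the dimmest of the members and the one with the widest range. It read 8.01 and 7.80 in ENT, 5.59 and 5.99 in Ent-Pro and 4.86 and 5.21 in ISC. The DBZ Sec-Pro arrays read 5.68 and 5.80. The Rbpj Sec-Pro pair parted, at 7.54 for replicate 1 and 5.69 for replicate 2. Both ENT arrays were above every crypt array, and ISC below every other. ENT exceeded Ent-Pro by 2.12 (SE 0.48, limma, adjusted p = 0.0070), ISC by 2.87 (SE 0.48, 7.32-fold, adjusted p = 0.00088) and Sec-Pro by 1.73 (SE 0.41, 3.31-fold, adjusted p = 0.0087). Its range of group means, 2.87, exceeded that of 95.3% of genes. Without Rbpj Sec-Pro replicate 1 the ENT to Ent-Pro difference, which uses other arrays, had an SE of 0.18 (limma, adjusted p = 5.3e-05), and ENT minus Sec-Pro was 2.19 (adjusted p = 4.1e-05). Without ENT replicate 1, ENT minus Sec-Pro was 1.62 and lost its call (adjusted p = 0.064).

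Between the crypt groups the Prdm1 calls turned on single arrays. Sec-Pro minus Ent-Pro was 0.39 (SE 0.41, limma, adjusted p = 0.52), and it was -0.072 (adjusted p = 0.79) without replicate 1 of Rbpj Sec-Pro and 0.85 (adjusted p = 0.0066) without replicate 2. DBZ minus Rbpj Sec-Pro was -0.87 (adjusted p = 0.23), 0.052 without replicate 1 and -1.80 without replicate 2 (limma, adjusted p = 0.0019). Ent-Pro minus ISC was 0.76 (adjusted p = 0.31), and was called when either Rbpj Sec-Pro array was left out (adjusted p = 0.014, with an SE of 0.18 in place of 0.48). Sec-Pro minus ISC was 1.15 (adjusted p = 0.049). It was 0.68 (adjusted p = 0.010) without Rbpj Sec-Pro replicate 1 and 1.61 (adjusted p = 0.00011) without replicate 2, and it lost its call, at 0.97 to 1.32, without any 1 of the other 8 arrays. With the replicate block its adjusted p was 0.060.

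Lymphocytes also express Prdm1, and leukocyte markers moved with it on some arrays. From Ent-Pro to ENT 8 of 13 leukocyte markers rose and 0 fell, beside 18.5% of all genes higher and 20.2% lower. The list mean went from 6.59 and 6.45 to 8.27 and 8.51. Ptprc, the common leukocyte antigen, and Klrd1 were near background (within 1 log2 of TrpnX, a bound set after the data were seen) in ISC, and no leukocyte marker was elsewhere. The replicate with the highest list mean, 9.35, was the Rbpj Sec-Pro array with high Prdm1. The lists did not run in parallel throughout: DBZ Sec-Pro replicate 2 had a leukocyte mean of 8.43, as high as ENT, with Prdm1 at 5.80. The mean of villus enterocyte markers, 13.79 and 13.88 in ENT, was 13.63 on the same Rbpj Sec-Pro array and 12.30 to 13.33 on the other Sec-Pro arrays. Of 8 plasma and B cell markers 0 rose in ENT and 2 fell, and the plasma cell receptor Tnfrsf17 read 4.27 to 4.89 on all arrays. The part of leukocytes and plasma cells in the Prdm1 level was not tested.

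**Figure D4:**
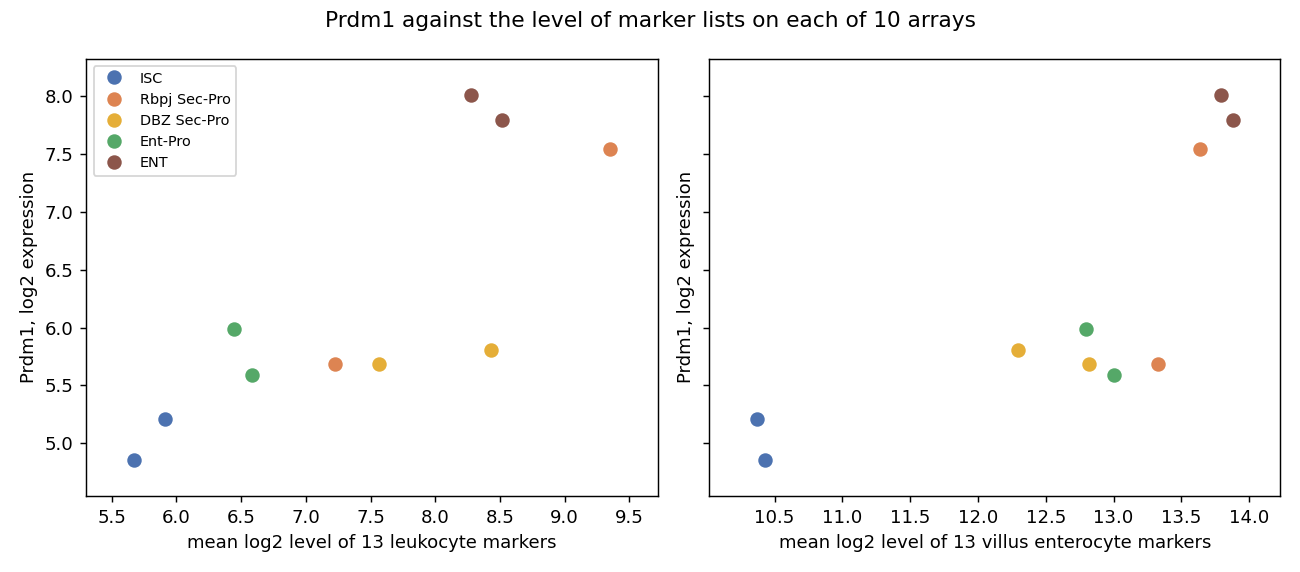
Prdm1 (vertical axis, log2 expression) against the mean log2 level of 13 leukocyte markers (left) and 13 villus enterocyte markers (right) on each of 10 arrays. Of the 3 arrays with Prdm1 above 7, 2 are ENT and 1 is Rbpj Sec-Pro replicate 1, and DBZ Sec-Pro replicate 2 has leukocyte markers at the ENT level with Prdm1 at 5.80.

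Elf3 varied least. It read 11.02 and 10.55 in ENT, 10.15 and 10.31 in Ent-Pro and 10.70 and 10.62 in ISC. The Sec-Pro arrays were below these, with 9.82 and 9.90 (Rbpj) and 9.88 and 10.04 (DBZ). ENT was above both progenitor groups but overlapped ISC. The difference from Ent-Pro was 0.56 (SE 0.16, limma, adjusted p = 0.024), and 0.33 (adjusted p = 0.16) without ENT replicate 1. Without Ent-Pro replicate 1 it was 0.48 (adjusted p = 0.13), and without Ent-Pro replicate 2 it was 0.64 (adjusted p = 0.059). Against Sec-Pro it was 0.88 (SE 0.14, 1.84-fold, adjusted p = 0.0012), and against ISC 0.13 (95% interval -0.24 to 0.50, adjusted p = 0.56). Sec-Pro was lower than ISC by -0.75 (SE 0.14, 1.68-fold lower, adjusted p = 0.0025). Between Ent-Pro and ISC the difference was -0.43 (adjusted p = 0.088), and it was called when either ENT array was left out (adjusted p = 0.039). The range of its group means, 0.93, was close to the median of 0.83 over all genes.

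In order of level on its brighter probe set, Klf4 ran from ISC through Ent-Pro, Rbpj Sec-Pro and DBZ Sec-Pro to ENT. On that probe set neither ISC and Ent-Pro nor the Sec-Pro groups differed by the test. On the dimmer one Ent-Pro (9.52) came below ISC (10.96), a difference that was called. Prdm1 ran from ISC through DBZ Sec-Pro, Ent-Pro and Rbpj Sec-Pro to ENT, with the ISC arrays below and the ENT arrays above all others. The place of Rbpj Sec-Pro rests on replicate 1: without it Rbpj Sec-Pro, at 5.69, came below DBZ Sec-Pro (5.74) and Ent-Pro (5.79). Klf5 and Elf3 shared the start of their order, Rbpj Sec-Pro, DBZ Sec-Pro and Ent-Pro, and ended with ENT and ISC for Klf5 and with ISC and ENT for Elf3. On the brightest probe set of each gene, none of the 4 was called between DBZ and Rbpj Sec-Pro, where 16.4% of all genes (2036) were (9.34% higher, 7.08% lower). On the same probe sets none was called between Ent-Pro and ISC, where 25.5% were (12.1% higher). The first of these shares was not stable: 97 genes were called when only the compared groups were fitted, and 363, 1273 or 1018 without DBZ Sec-Pro replicate 2, DBZ Sec-Pro replicate 1 or Rbpj Sec-Pro replicate 1. Without an Ent-Pro array or ISC replicate 2, 1704 to 1817 genes were called between Ent-Pro and ISC, against 3165. Between Sec-Pro and ISC all 4 were called, Klf4 and Prdm1 higher and Klf5 and Elf3 lower, where 45.2% of all genes were called, 18.0% higher and 27.2% lower.

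Likeness of profile was measured as the root mean square difference between the 5 group means of a pair of genes, each centred on its own mean, over 12392 other genes. Elf3 was near Klf5 at 0.21 log2, where a median gene was 0.48 from Klf5, whereas Klf4 was 1.31 and Prdm1 1.12 from Klf5. Klf4 and Prdm1 were 0.65 apart, against medians of 1.05 and 1.01. Nearest to Klf4 were Plek, encoding the blood cell protein pleckstrin (0.13), the Rac-regulating Chn2 (0.18), Pea15a (0.18) and the leukotriene C4 synthase Ltc4s (0.19). Nearest to Klf5 were Plekha2 (0.082), Lad1, encoding ladinin of basement membranes (0.095), the lysosomal channel Mcoln2 (0.098) and the receptor Tnfrsf14 (0.099). Nearest to Prdm1 were Fam214b (0.089), Sec16b of endoplasmic reticulum exit sites (0.099), Tmem106a (0.11) and Lratd1 (0.11). Nearest to Elf3 were the lymphotoxin receptor Ltbr (0.044), the kinase Ptk2b (0.048), Nacc2 (0.049) and Prdm9 (0.053). These names rest on Rbpj Sec-Pro replicate 1: without it, for each member, only 1 of the 4 nearest genes was the same (Plek, Plekha2, Lratd1 and Ltbr). Fam214b was then 0.22, Sec16b 0.34 and Tmem106a 0.36 from Prdm1. Klf4 and Prdm1 were then 0.76 apart, and Elf3 and Klf5 0.21. Every distance used the brighter probe set of Klf4 and of Klf5. On the dimmer Klf5 probe set the group order differed from that of Elf3, and likeness was not measured on it. With 5 groups such matches describe these samples only.

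Of 20 measured genes of the KLF and SP family, 5 rose from Ent-Pro to ENT and 0 fell, beside 18.5% of all genes higher and 20.2% lower. The median difference was 0.16, beside 0.020 over all genes. Klf4 changed most, followed by Sp5, a Wnt-responsive factor (3.84-fold, limma, adjusted p = 0.00082), Klf6, a factor of stress and injury responses (2.93-fold, adjusted p = 0.00076), and Klf15, a metabolic regulator (1.92-fold, adjusted p = 0.018). The remaining gene, Sp4, falls outside the rule for naming and was named after its value was seen (0.94, adjusted p = 0.0054). Klf15 (1.33, adjusted p = 0.0046) and Sp5 (0.80, adjusted p = 0.047) also rose from Ent-Pro to Sec-Pro, as Klf4 did. Klf6 differed there by 0.41 (adjusted p = 0.16). Compared with ISC, the family looked different. Sp5 in ENT differed from ISC by 0.037 (limma, adjusted p = 0.93), with its lowest group mean in Ent-Pro. Of the 20 genes, 4 were higher and 6 lower in ENT than in ISC, beside 22.3% and 26.8% of all genes. In Ent-Pro 0 were higher and 7 lower than in ISC, beside 12.1% and 13.5% of all genes.

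**Figure D5:**
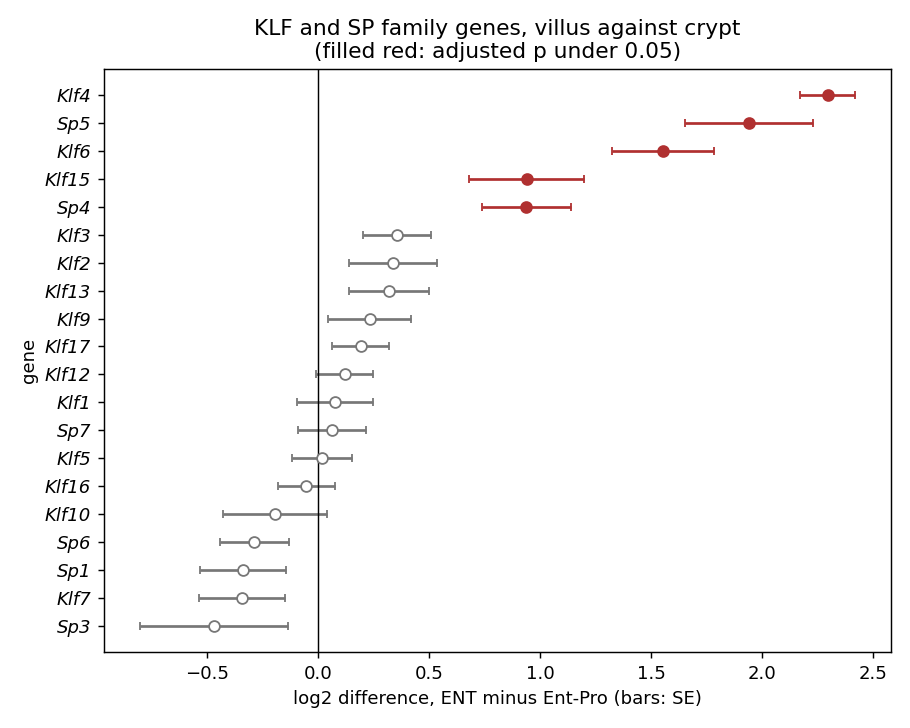
Log2 difference between ENT and Ent-Pro (points, with the SE as bars) for 20 measured KLF and SP family genes, in order of size, with adjusted p under 0.05 in filled red. Klf4, Sp5, Klf6, Klf15 and Sp4 rise, and Klf5 lies at 0.019.

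Among the relatives of the other members, 22 ETS genes were measured, of which 4 rose, 4 fell and 14 did not pass between Ent-Pro and ENT (median 0.061), near the 38.7% of all genes called. Spib, known from lymphoid and microfold cells, rose 17.1-fold (4.10, SE 0.65, limma, adjusted p = 0.0012), with readings of 10.16 and 9.49 in ENT and 5.95 and 5.50 in Ent-Pro. On the Rbpj Sec-Pro arrays, where Spib read 6.77 and 9.29, tuft markers averaged 6.41 and 8.33, and the part of tuft cells was not tested. Ehf, another ETS factor of epithelia, fell 2.71-fold (adjusted p = 0.00052). Etv3 rose 2.23-fold (adjusted p = 0.00032) and Ets1, a factor of lymphocytes, 2.29-fold (adjusted p = 0.021). Of 4 PRDM genes measured 2 rose, Prdm1 and the meiotic factor Prdm9 (1.47-fold, adjusted p = 0.034), the latter at a level of 4.99 to 5.90 over the group means.

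Genes that other work has tied to the 4 factors were read as lists. Of 8 cell cycle genes linked to KLF4 and KLF5, 6 fell and 1 rose from Ent-Pro to ENT, with a median of -1.63, beside 20.2% of all genes lower and 18.5% higher. Those with the largest differences were Ccnd1, encoding cyclin D1 (6.25-fold lower, limma, adjusted p = 0.00027), the cell cycle inhibitor Cdkn1a (4.49-fold higher, adjusted p = 0.00077), the mitotic kinase Cdk1 (4.03-fold lower, adjusted p = 7.1e-05) and Birc5, encoding survivin (4.03-fold lower, adjusted p = 5.7e-05). Cdkn1a, a gene that KLF4 is known to activate, rose from Ent-Pro to Sec-Pro too (3.12-fold, limma, adjusted p = 0.0045). There 5 of the 8 fell and 1 rose, beside 14.7% of all genes lower and 9.27% higher. All 9 proliferation markers, of which Cdk1 and Birc5 are also in the list above, fell in both comparisons. The part of KLF4 and KLF5 in these changes was not tested.

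Genes of the suckling and adult programmes, which PRDM1 is known to balance in mouse gut, were read next. Of 9 suckling-type genes 1 rose and 0 fell from Ent-Pro to ENT, beside 18.5% of all genes higher and 20.2% lower. In ENT 4 were higher and 1 lower than in ISC, beside 22.3% of all genes higher and 26.8% lower. Lrp2 and Nox4 of this list were near background in every group, so a fall could not show in them. From Ent-Pro to ENT Fcgrt, encoding the neonatal Fc receptor, rose 2.90-fold (limma, adjusted p = 7.6e-05). The next by p, the galactosidase Glb1, differed by -0.36 (adjusted p = 0.066). Both adult-type genes measured rose, trehalase, Treh, 4.29-fold (adjusted p = 0.0002) and the arginase Arg2 2.40-fold (adjusted p = 0.022). Of 13 genes linked to PRDM1 in lymphocytes and antigen presentation, 5 rose and 3 fell (median 0.25), beside 18.5% of all genes higher and 20.2% lower, with Spib and the repressor Bcl6 (3.07-fold, adjusted p = 0.00022) among the higher, and Myc (3.98-fold lower, adjusted p = 5.4e-05) and Ciita, the class II transactivator (2.11-fold lower, adjusted p = 0.045), among the lower. Of 5 genes linked to ELF3 in epithelia, keratin Krt20 rose 1.89-fold (adjusted p = 0.025) and 4 did not pass, among them keratin Krt8 at 0.31 (adjusted p = 0.060).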

How the data were processed

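Gene expression was read from 10 arrays in 5 groups of 2. The authors deposited log2 values per probe set; RMA and MAS5 are named, without what each was used for, per the submitters' processing notes. Values lay between 2.90 and 15.18 and were used without further scaling. Gene symbols came from the platform's annotation and were checked by Entrez identifier: 20393 of 22690 had 1 symbol, 691 several and 1606 none here. The 64 control probe sets were left out, and the brightest probe set on average stood for each gene, giving 12393 genes with no filter on dim genes. The number of arrays limits the precision.

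All arrays entered 1 model of 5 group means in limma 3.58.1 (R 4.3.3; lmFit, eBayes; 5 residual and 3.75 prior degrees of freedom), with Benjamini-Hochberg adjustment over all genes and a threshold of 0.05. On simulated data with 200 changed genes the test recovered 58.5% to 88.5% of changes of log2 1 and 93.5% to 98% of changes of log2 2 over the planned comparisons. The within-array differences, Klf4 minus Klf5 and Prdm1 minus Klf5, were tested by exact permutation. The members and lists were chosen with earlier results of these data known, and ENT minus Sec-Pro and each Sec-Pro group minus Ent-Pro were added after the levels had been seen, as was leaving out Rbpj Sec-Pro replicate 1 for likeness and group order. Genes to name were the 4 members, of each pathway list up to 4 called genes by size (with fewer than 2 called, the 2 of lowest p), and the 4 nearest profiles of each member. Alternatives covered scaling, probe set, filter, samples in the fit, variance prior, replicate block and leaving out each array. Arrays of the same replicate number showed little joint deviation (r from -0.19 to 0.17 over 10 pairs of groups), and the number was not used to pair them in the main model. A small shared effect of mouse or day could go unseen in this check.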

Additional observations from a re-analysis of the deposited data

How the results depend on the processing

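Klf4 and Prdm1 kept their direction and their call between ENT and Ent-Pro under every alternative that gave a value, at 2.23 to 2.75 and 1.91 to 2.32, as did Klf4 and Klf5 between Sec-Pro and Ent-Pro, at 1.67 to 2.09 and -1.41 to -0.67. Prdm1 has no value among genes above the median level, since it lies below it. The probe set changed most. Klf5 in ENT minus Ent-Pro was -1.09 on the other probe set and -0.54 on the mean of both. ENT minus ISC was -1.04 and -0.63, and 0.017 after centring arrays. ENT minus the mean of the crypt groups was -0.37 and -0.0094, Ent-Pro minus ISC 0.053 and DBZ minus Rbpj Sec-Pro -0.012 on the other probe set. Klf4 in Ent-Pro minus ISC was -1.44 and -0.64. Klf4 minus Klf5 reached its call, at 1.84, with the other Klf5 probe set. Fitted on only the compared groups, Elf3 in ENT minus Ent-Pro, 0.56, lost its call (adjusted p = 0.065), and Elf3, -0.43, and Prdm1, 0.76, in Ent-Pro minus ISC gained one (0.038 and 0.032). Prdm1 in Sec-Pro minus ISC, 1.15, lost its call in that fit, with a trended robust prior, with the mean of the probe sets and with the replicate block (adjusted p from 0.053 to 0.089). The replicate block changed no other call of a member in the 7 planned comparisons. Cyclic loess turned Prdm1 in DBZ Sec-Pro minus Ent-Pro to 0.028. The causes were not tested.

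Leaving out 1 array at a time gave, for Elf3, 0.33 to 0.80 in ENT minus Ent-Pro, -0.11 to 0.36 in ENT minus ISC, -0.51 to -0.35 in Ent-Pro minus ISC and 0.38 to 0.85 in ENT minus the crypt mean. For Klf5 it gave -0.11 to 0.15 in ENT minus Ent-Pro and 0.32 to 0.39 in ENT minus the crypt mean. For Prdm1 the ranges were 0.55 to 0.96 in Ent-Pro minus ISC, -0.072 to 0.85 in Sec-Pro minus Ent-Pro, 0.68 to 1.61 in Sec-Pro minus ISC, -1.80 to 0.052 in DBZ minus Rbpj Sec-Pro, -0.25 to 0.16 in DBZ Sec-Pro minus Ent-Pro and -0.098 to 1.75 in Rbpj Sec-Pro minus Ent-Pro. Where this leaves a group with 1 array, that array is assumed to vary like the others. Centring moved the median over all genes in ENT minus Ent-Pro from 0.020 to 0.15 and the split of calls from 2291 higher and 2501 lower to 2974 and 2128. The same step took ENT minus ISC from 2769 and 3325 to 4388 and 2593, Ent-Pro minus ISC from 1498 and 1667 to 1905 and 1277, ENT minus the crypt mean from 3056 and 2928 to 5108 and 2326, and ENT minus Sec-Pro from 3168 and 2480 to 5404 and 1931. For Sec-Pro minus Ent-Pro 1149 and 1826 became 1001 and 2504, or 1434 and 1206 with cyclic loess, which also took Sec-Pro minus ISC from 2230 and 3376 to 2838 and 2519 and Rbpj Sec-Pro minus Ent-Pro from 1161 and 2094 to 1540 and 1329. Centring took DBZ Sec-Pro minus Ent-Pro from 1096 and 1211 to 974 and 1682. Leaving out 1 array, the number of genes called ran from 903 to 3714 in Sec-Pro minus Ent-Pro (2975 with all), 1704 to 3656 in Ent-Pro minus ISC (3165), 363 to 2742 in DBZ minus Rbpj Sec-Pro (2036), 824 to 3845 in Rbpj Sec-Pro minus Ent-Pro (3255) and 1045 to 2856 in DBZ Sec-Pro minus Ent-Pro (2307). Fitted on only the compared groups it was 97 in DBZ minus Rbpj Sec-Pro and 705 in Rbpj Sec-Pro minus Ent-Pro. Among the 6196 genes above the median level, fewer being tested, it was 1167 and 2142.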
